A study of Mus musculus with 40 samples.

Results

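Antigen presentation and the interferon response were followed through 8 genes in mouse cell lines, primary cells and tissues, measured on nylon filter arrays. They were B2m, Tapbp, Psmb8 and Psmb9 of the MHC class I route, H2-Aa and H2-Eb1 of MHC class II, and the interferon-induced genes Gbp2 and Apol9a. Members were the spots whose only gene symbol was 1 of these names, and each of the 8 genes had 1 spot, so that 8 of 5760 spots and 8 of 3284 named genes were described.

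The series holds 40 arrays of 14 groups, each array hybridised with 33P-labelled cDNA of 1 sample. The primary groups were peritoneal macrophages kept as the cells adherent 24 h after plating (3 samples), stroma-vascular cells of inguinal white fat adherent 24 h after plating (3), adipocytes freed from inguinal white fat with collagenase (3), liver (2) and tibialis muscle (2). The cultured groups were the macrophage lines Raw 264 (3) and J774 (2), 3T3-F442A adipocytes taken 7 days after confluence with rosiglitazone (3), C2C12 myotubes after 7 days in 4% horse serum (2), C2C12 myoblasts (3), the mesenchymal line C3H-10T1/2 (3), and ZIN40 embryonic stem (ES) cells without (3) and with (3) the cytokine LIF. By title, the ES cells without LIF were differentiated and those with LIF non-differentiated. Growing preadipocyte lines at low density in 10% serum gave 5 samples, 2 of 3T3-L1 and 1 each of 3T3-F442A, Ob1774 and Hgfu. The labels give 10% serum also for peritoneal macrophages, stroma-vascular cells and the other cultured groups except myotubes. They give none for inguinal adipocytes, liver and tibialis muscle. No sample carries a labelled interferon treatment, genotype, strain, sex or age, and every sample of a line comes from that 1 line. The labels name separate sources for the 4 preadipocyte lines only. For every other group it is unknown whether samples were separate cultures or animals, and their spread may be technical. P-values of the main fit rest on 1 spread per spot pooled over all 14 groups, not on that of the compared groups.

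MHC class I molecules show peptides from inside the cell to T cells, and B2m encodes beta-2-microglobulin, their shared light chain. The peptides are cut by the proteasome, in which interferon replaces standard catalytic subunits with Psmb8 (LMP7) and Psmb9 (LMP2), and Tapbp encodes tapasin, which holds empty class I molecules at the peptide transporter. H2-Aa and H2-Eb1 encode the alpha chain of H2-A and the beta chain of H2-E, class II molecules that macrophages, dendritic cells and B cells use to show peptides taken up from outside. Gbp2 encodes an interferon-induced GTPase that acts against intracellular microbes, and Apol9a an interferon-induced apolipoprotein L of the mouse. Interferons act through STAT and IRF factors, for which the GAS and ISRE motifs are known promoter elements, while class II promoters carry a CCAAT box in their conserved upstream element.

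The promoters of the 4 members that passed the test in at least 1 comparison between groups, and that of H2-Aa as a class II promoter, are given as RefSeq has them on GRCm38.p6, from 250 bases before to 50 bases after the start. They lie at chr2:122147437-122147736 on the plus strand for B2m, chr17:34197945-34198244 on the plus strand for Psmb8, chr3:142620413-142620712 on the plus strand for Gbp2, chr15:77411031-77411330 on the minus strand for Apol9a (the first of its 2 annotated starts) and chr17:34287774-34288073 on the minus strand for H2-Aa. Capitals mark matches, on either strand, to the ISRE searched as GAAANNGAAA, the GAS searched as TTCNNNGAA, and CCAAT.
B2m promoter: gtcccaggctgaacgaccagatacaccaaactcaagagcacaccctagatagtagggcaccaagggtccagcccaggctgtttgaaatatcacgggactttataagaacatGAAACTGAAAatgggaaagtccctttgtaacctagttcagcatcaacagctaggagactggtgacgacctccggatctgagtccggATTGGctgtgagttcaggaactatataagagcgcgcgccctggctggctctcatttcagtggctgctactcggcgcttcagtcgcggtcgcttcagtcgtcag
Psmb8 promoter: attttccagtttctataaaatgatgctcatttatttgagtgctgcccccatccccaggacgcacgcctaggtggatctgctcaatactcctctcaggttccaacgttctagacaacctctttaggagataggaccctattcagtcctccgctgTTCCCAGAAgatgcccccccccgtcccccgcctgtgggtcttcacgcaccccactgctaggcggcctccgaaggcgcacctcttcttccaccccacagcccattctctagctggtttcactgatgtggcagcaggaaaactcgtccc
Gbp2 promoter: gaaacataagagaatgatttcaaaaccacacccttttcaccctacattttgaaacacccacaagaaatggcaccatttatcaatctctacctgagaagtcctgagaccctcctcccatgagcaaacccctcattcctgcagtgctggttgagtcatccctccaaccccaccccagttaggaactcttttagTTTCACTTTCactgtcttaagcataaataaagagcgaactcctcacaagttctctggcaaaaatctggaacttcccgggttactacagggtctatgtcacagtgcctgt
Apol9a promoter: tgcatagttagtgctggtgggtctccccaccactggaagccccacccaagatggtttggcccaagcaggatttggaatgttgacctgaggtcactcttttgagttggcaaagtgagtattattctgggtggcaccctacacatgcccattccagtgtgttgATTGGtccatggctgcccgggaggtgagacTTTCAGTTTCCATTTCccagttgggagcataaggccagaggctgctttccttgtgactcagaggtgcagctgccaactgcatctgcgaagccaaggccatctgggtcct
H2-Aa promoter: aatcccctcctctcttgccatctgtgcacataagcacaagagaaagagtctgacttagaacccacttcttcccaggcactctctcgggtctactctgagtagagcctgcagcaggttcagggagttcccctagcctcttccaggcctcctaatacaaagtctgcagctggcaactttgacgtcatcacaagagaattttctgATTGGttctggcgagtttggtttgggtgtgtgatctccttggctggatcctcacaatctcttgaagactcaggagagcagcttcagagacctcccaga
The ISRE letters were found in 3 of the 8 members and in 3.44% of all 32851 promoters in the table. B2m had 1 match, 139 bases upstream of the start, and Gbp2 had 1 on the other strand, 59 bases upstream. Apol9a had 2 matches that overlap each other, at 59 and 53 bases upstream. The GAS letters were found in Psmb8 alone, 97 bases upstream, and in 8.3% of all promoters. CCAAT stood in 6 of the 8, all but Psmb8 and Gbp2, and in 37.4% of all promoters; in H2-Aa it lay 48 bases upstream. The genes of H2-Eb1, Psmb9 and Tapbp lie on chromosome 17 as well. The motif matches describe letters in a window and are no measure of factor binding.

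Raw array medians ran from 18870 to 132228 intensity units outside the ES cells without LIF. The 3 arrays without LIF hold values of another kind (99th percentile 60 to 391 times the median, against 3.87 to 17.5 times on the other 37), so the members' values there are described without a test. The labelled cell types were checked by marker genes. Against tibialis muscle, 4 of 5 liver markers were called higher in liver and 5 of 7 muscle markers lower, 4 of 5 macrophage markers were higher in peritoneal macrophages than in stroma-vascular cells, and none of 8 ES cell markers was measured. Levels below are quantile-normalized intensities in kilo-units (kU), and fold changes are on the log2(intensity + 36.4 kU) scale, which understates changes of dim spots. A spot was called at a limma p under 0.05 after Benjamini-Hochberg adjustment over all 5760 spots.

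In a limma moderated F test over 13 groups, 5 of the 8 members differed among groups, against a background of 10.9% of spots called. Gbp2 had the smallest adjusted p of the members (4.22e-06), followed by B2m (0.000383), Psmb8 (0.00062), Apol9a (0.00079) and Psmb9 (0.0313). Tapbp (0.643), H2-Aa (0.274) and H2-Eb1 (0.406) were not called. In pairwise comparisons of 2 conditions, 7 of 88 member and comparison pairs were called, against 0.949% of the pairs over all spots, and all 7 had stroma-vascular cells on 1 side. These 7 calls share the same 3 stroma-vascular samples and are not independent. The members were chosen with earlier results of these data known, which limits the comparison with the background. In bulk samples, fewer cells of a type and less RNA per cell cannot be told apart.

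**Figure D1:**
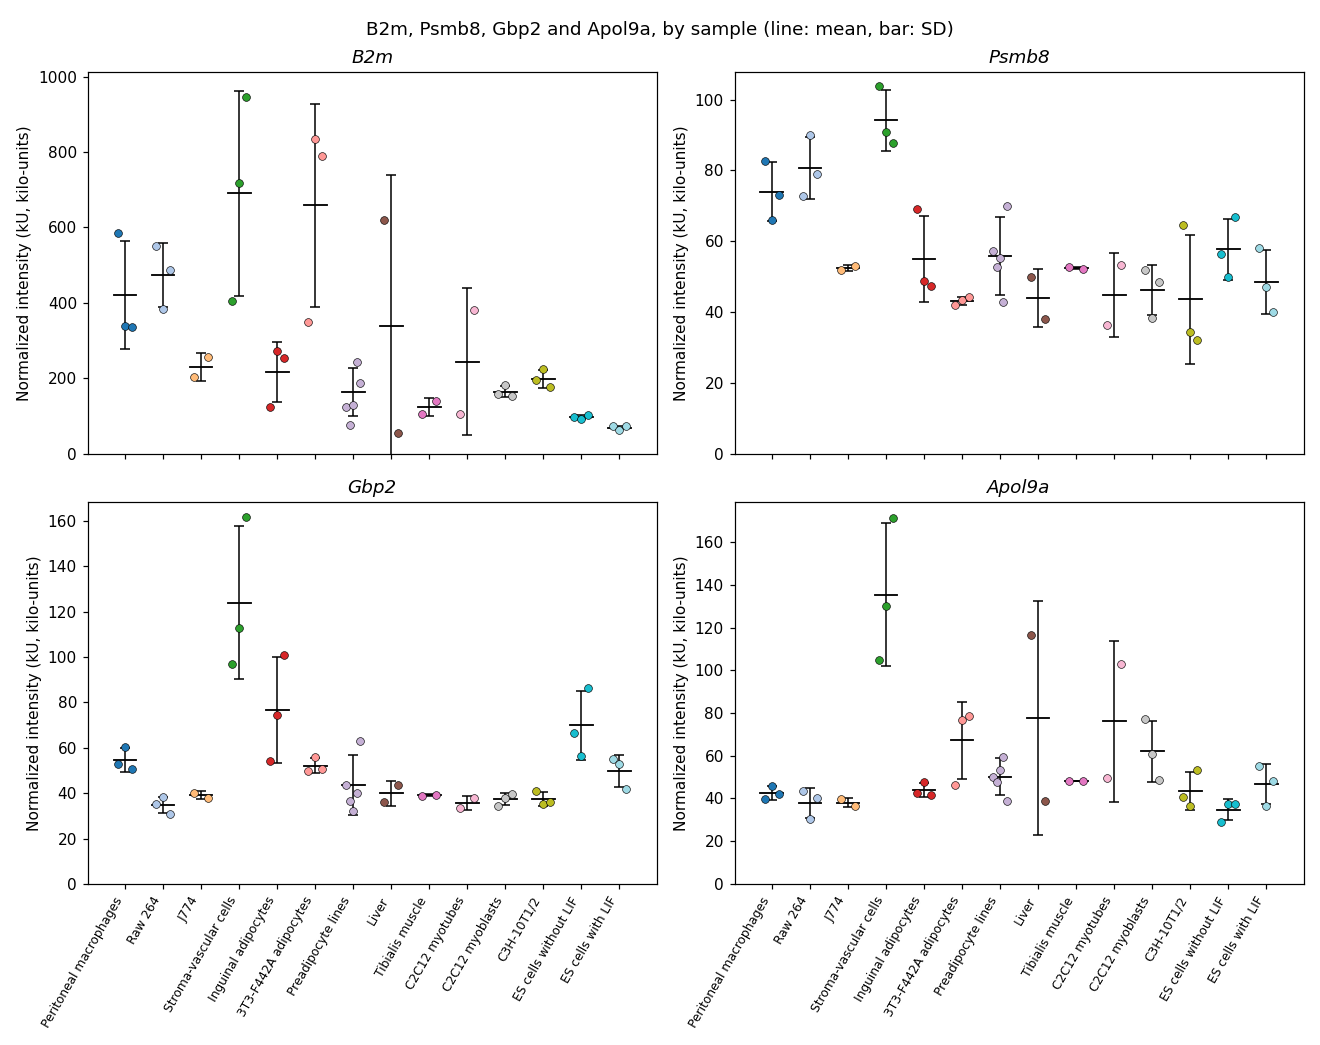
Normalized intensity in kilo-units (kU) (y axis) of B2m, Psmb8, Gbp2 and Apol9a in each sample (points) of the 14 groups (x axis), with the group mean as a line and 1 SD as a bar, cut at 0 for B2m in liver. The 3 stroma-vascular samples of Apol9a lie at 105, 130 and 171 kU, above all other samples but 1 of liver.

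Apol9a was the member with the most called comparisons, 3 of 11. Peritoneal macrophages read 39.7, 46.0 and 41.9 kU. Stroma-vascular cells read 105, 130 and 171 kU, against 42.7, 47.8 and 41.8 kU in inguinal adipocytes. The preadipocyte samples read 50.1 and 47.9 (3T3-L1), 53.2 (3T3-F442A), 59.5 (Ob1774) and 39.0 kU (Hgfu). All stroma-vascular samples lay above every sample of these 3 groups, and outside the stroma-vascular group 1 of 34 arrays, a liver sample at 116 kU, reached their lowest value. The compared groups were mostly dim. Apol9a lay at percentiles 17.3 to 33.2 in macrophages, 22.2 to 37.9 in adipocytes and 15.5 to 63.7 in preadipocyte samples, against 89.8 to 93.3 in stroma-vascular cells. At the low end transcript could not be told apart from filter background.

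Against preadipocyte lines, 3 of the 8 members were called higher in stroma-vascular cells, where 0.191% of all spots were called. Apol9a was higher by a log2 fold change of 0.98 ± 0.17 (SE; 3 samples against 4 lines; adjusted p = 0.00254 by limma). In stroma-vascular cells against inguinal adipocytes 2 of 8 members were called, against 0.625% of spots, and Apol9a was higher by 1.08 ± 0.18 (adjusted p = 0.00104 by limma). In peritoneal macrophages against stroma-vascular cells 2 of 8 were called, against 0.451% of spots, and Apol9a was lower, at -1.10 ± 0.18 (adjusted p = 0.00069 by limma). The adipocyte and macrophage calls of Apol9a held when any 1 of the 6 samples was left out; the preadipocyte call was lost without stroma-vascular sample 3 (0.83, adjusted p = 0.0675 by limma). Apol9a has a near-identical neighbour gene, Apol9b, and a cDNA spot may not tell the pair apart.

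Gbp2, the interferon-induced GTPase, read 52.9, 60.4 and 50.7 kU in peritoneal macrophages. Stroma-vascular cells read 97.1, 113 and 162 kU. Inguinal adipocytes read 54.3 and 74.6 kU in 2 samples, and the other exceeded the lowest stroma-vascular sample. Preadipocyte samples read 43.4 and 36.7 (3T3-L1), 32.2 (3T3-F442A), 40 (Ob1774) and 62.9 kU (Hgfu). The stroma-vascular samples lay above all macrophage and preadipocyte samples, and overlapped only with adipocytes. Gbp2 was a dim spot on many arrays, with a median percentile of 20.2 on 37 arrays. It lay at percentiles 3.8 to 68.8 in preadipocyte samples and 45.2 to 65.1 in macrophages, against 88.5 to 93.1 in stroma-vascular cells. Gbp2 was higher in stroma-vascular cells than in preadipocyte lines by 0.99 ± 0.13 (adjusted p = 1.34e-05 by limma) and was lower in peritoneal macrophages than in stroma-vascular cells, at -0.80 ± 0.13 (adjusted p = 0.000786 by limma). These Gbp2 calls held without any 1 sample of the compared groups. Against inguinal adipocytes the difference was 0.50 ± 0.13 and missed the threshold (adjusted p = 0.0759 by limma).

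The rest of the Gbp2 profile was flat in muscle and in the macrophage lines. Raw 264 read 35.2, 38.3 and 31.0 kU and had the lowest group mean, and J774 read 40.3 and 37.9 kU. The range of group means was 1.15 on the log2 scale for Gbp2 and 1.2 for Apol9a. In the order of the 13 group means, the gap to the next group exceeded the larger SD in 1 of 12 neighbour pairs of Gbp2 and 2 of 12 of Apol9a. In both genes stroma-vascular cells stood first, with a gap above that SD to the next group, inguinal adipocytes for Gbp2 and C2C12 myotubes for Apol9a.

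B2m, the class I light chain, gave a bright spot, above the 50th percentile on 37 of 37 arrays with a median percentile of 94.0. Stroma-vascular cells read 406, 717 and 947 kU and inguinal adipocytes 125, 273 and 253 kU. The preadipocyte samples read 124 and 75.6 (3T3-L1), 129 (3T3-F442A), 243 (Ob1774) and 188 kU (Hgfu). Each stroma-vascular sample lay above all samples of both other groups. B2m was called higher in stroma-vascular cells than in preadipocyte lines (1.84 ± 0.40, adjusted p = 0.0377 by limma), and was not called against inguinal adipocytes (1.5 ± 0.43, adjusted p = 0.116 by limma). Both SEs use a residual SD pooled over all 14 groups (0.525), and B2m spread most in liver (SD 2.01) and C2C12 myotubes (SD 1.10). The preadipocyte call was lost in 4 of 8 fits that left out 1 sample. Without 3T3-F442A the value was 1.76 (adjusted p = 0.136 by limma) and without Hgfu 1.91 (0.0622), while without stroma-vascular sample 2 it was 1.77 (0.231) and without sample 3 it was 1.58 (0.232).

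Stroma-vascular cells and adipocytes carry the same sample numbers, and same-numbered samples deviated together from their group means (correlations 0.259, 0.102 and 0.386 over all spots). In a fit of these groups alone, 3 of 8 members and 112 spots in all were called without a block for the sample number, and 4 of 8 members and 231 spots with it, all 4 higher in stroma-vascular cells. B2m had an adjusted p of 0.000296 with the block and 0.0295 without it (limma), Apol9a 0.00109 and 0.00307, Psmb8 0.0124 and 0.0465, and Gbp2 0.0127 and 0.228. Adipocytes were taken straight after digestion and stroma-vascular cells after plating in serum, so that plating and serum cannot be told apart from the kind of cell.

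Elsewhere B2m read 585, 339 and 336 kU in peritoneal macrophages, 552, 383 and 486 kU in Raw 264, and 204 and 255 kU in J774. It read 350, 835 and 791 kU in 3T3-F442A adipocytes, each above every preadipocyte sample. Of the 8 members 1, B2m, did not overlap there, against 5.43% of spots. The B2m difference was 1.76 ± 0.40 and missed the threshold (adjusted p = 0.0608 by limma); it was called in 4 of 8 fits that left out 1 sample, and ranged there from 1.55 to 2.14. Inguinal adipocytes lay below 3T3-F442A adipocytes, at -1.42 ± 0.43, and this was not called either (adjusted p = 0.0658 by limma). In the order of group means, stroma-vascular cells, 3T3-F442A adipocytes, Raw 264 and peritoneal macrophages came first and differed from their neighbours by less than the larger SD. The step from macrophages to J774, at 0.74, exceeded it, and ES cells with LIF came last. Across 37 arrays the highest B2m sample was 17.1 times the lowest.

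**Figure D2:**
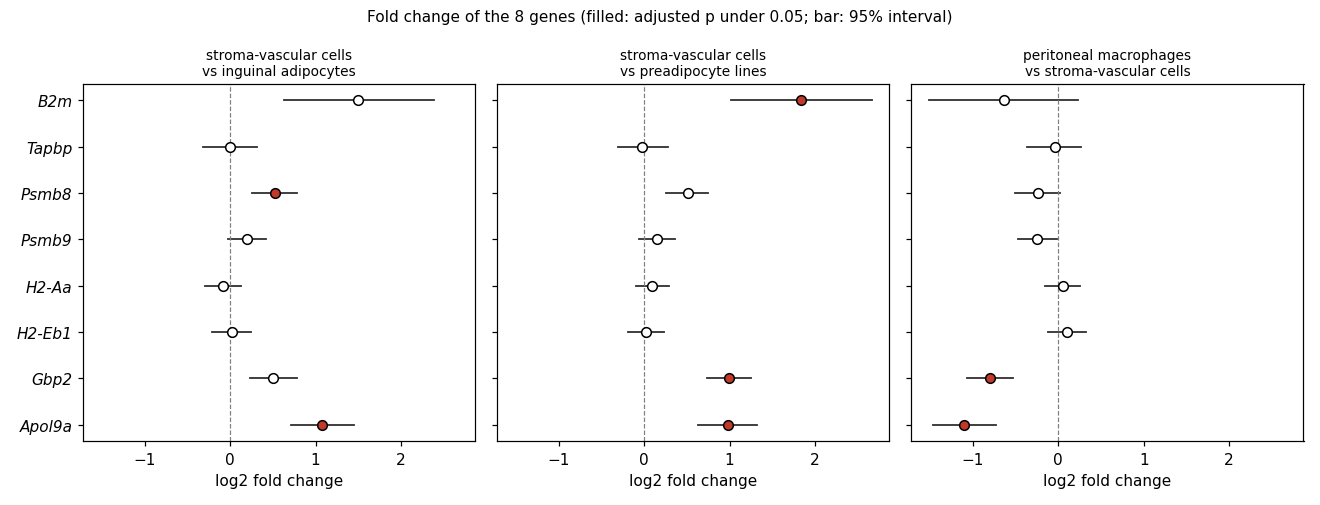
Log2 fold changes (x axis) of the 8 genes (y axis) in 3 comparisons, with 95% intervals as bars and filled points where the adjusted p was under 0.05. Apol9a is filled in all 3 panels, at 1.08, 0.98 and -1.10.

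Psmb8 and Psmb9, the interferon-induced proteasome subunits, had their highest group means in stroma-vascular cells and Raw 264. Psmb8 read 104, 90.8 and 87.8 kU in stroma-vascular cells against 69.0, 48.7 and 47.4 kU in inguinal adipocytes, with no overlap. It was called higher there by 0.52 ± 0.13 (adjusted p = 0.0483 by limma), close to the threshold. The call remained in 1 of 6 fits that left out a sample. Without adipocyte sample 2 or 3 the adjusted p was 0.252 or 0.242, and without stroma-vascular sample 1, 2 or 3 it was 0.213, 0.137 or 0.0913 (limma). Samples of the 2 groups did not overlap for 4 of 8 members, B2m, Psmb8, Apol9a and, lower in stroma-vascular cells, H2-Aa, against 20.0% of spots.

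Psmb8 samples of the preadipocyte lines read 57.4 and 52.8 (3T3-L1), 55.4 (3T3-F442A), 42.8 (Ob1774) and 70.0 kU (Hgfu), all below the stroma-vascular ones. Against these lines 4 of 8 members did not overlap, B2m, Psmb8, Gbp2 and Apol9a, against 5.28% of spots. The Psmb8 difference of 0.51 ± 0.12 missed the threshold (adjusted p = 0.0839 by limma). Peritoneal macrophages read 82.8, 66.1 and 73.1 kU, again below stroma-vascular cells, at -0.24 ± 0.13 (adjusted p = 0.933 by limma). In that comparison 4 of 8 members did not overlap, Psmb8, Psmb9, Gbp2 and Apol9a, all lower in macrophages, against 15.1% of spots. Raw 264 read 72.8, 90.0 and 79.1 kU against 51.8 and 53.2 kU in J774, without overlap, as had 27.8% of all spots. The difference of 0.39 ± 0.14 was not called (adjusted p = 0.352 by limma).

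Psmb9 read 57.6, 60.3 and 70.7 kU in stroma-vascular cells and 58.3, 51.3 and 41.5 kU in inguinal adipocytes, and these groups overlapped. It read 81.4, 59.7 and 74.4 kU in Raw 264 against 51.6 and 49.9 kU in J774, without overlap. That difference was 0.31 ± 0.12 (adjusted p = 0.388 by limma). Between these lines 3 of 8 members did not overlap, B2m, Psmb8 and Psmb9, all higher in Raw 264, against 27.8% of spots. No pairwise comparison of Psmb9 was called, and the smallest adjusted p was 0.298. The profiles of Psmb8 and Psmb9, which are neighbours in the class II region of the MHC, correlated at r = 0.75 over 13 group means that share arrays and normalization.

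Tapbp, the peptide-loading factor tapasin, was called in no comparison (smallest adjusted p = 0.459 by limma), and its fold changes ran from -0.27 to 0.38. The highest of these was C2C12 myotubes against myoblasts, with 78.6 and 66.1 kU in myotubes and 45.4, 39.7 and 57.0 kU in myoblasts. In that comparison 2 of 8 members, Tapbp and H2-Eb1, did not overlap, against 21.6% of spots. In stroma-vascular cells, where B2m and Psmb8 were high, Tapbp read 46.3, 43.0 and 51.8 kU, overlapping the 43.0 to 52.1 kU of inguinal adipocytes. Its spot lay at percentiles 25.4 to 48.1 in stroma-vascular cells, with a median percentile of 41.9 on 37 arrays. At such levels an unchanged transcript could not be told apart from filter background.

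**Figure D3:**
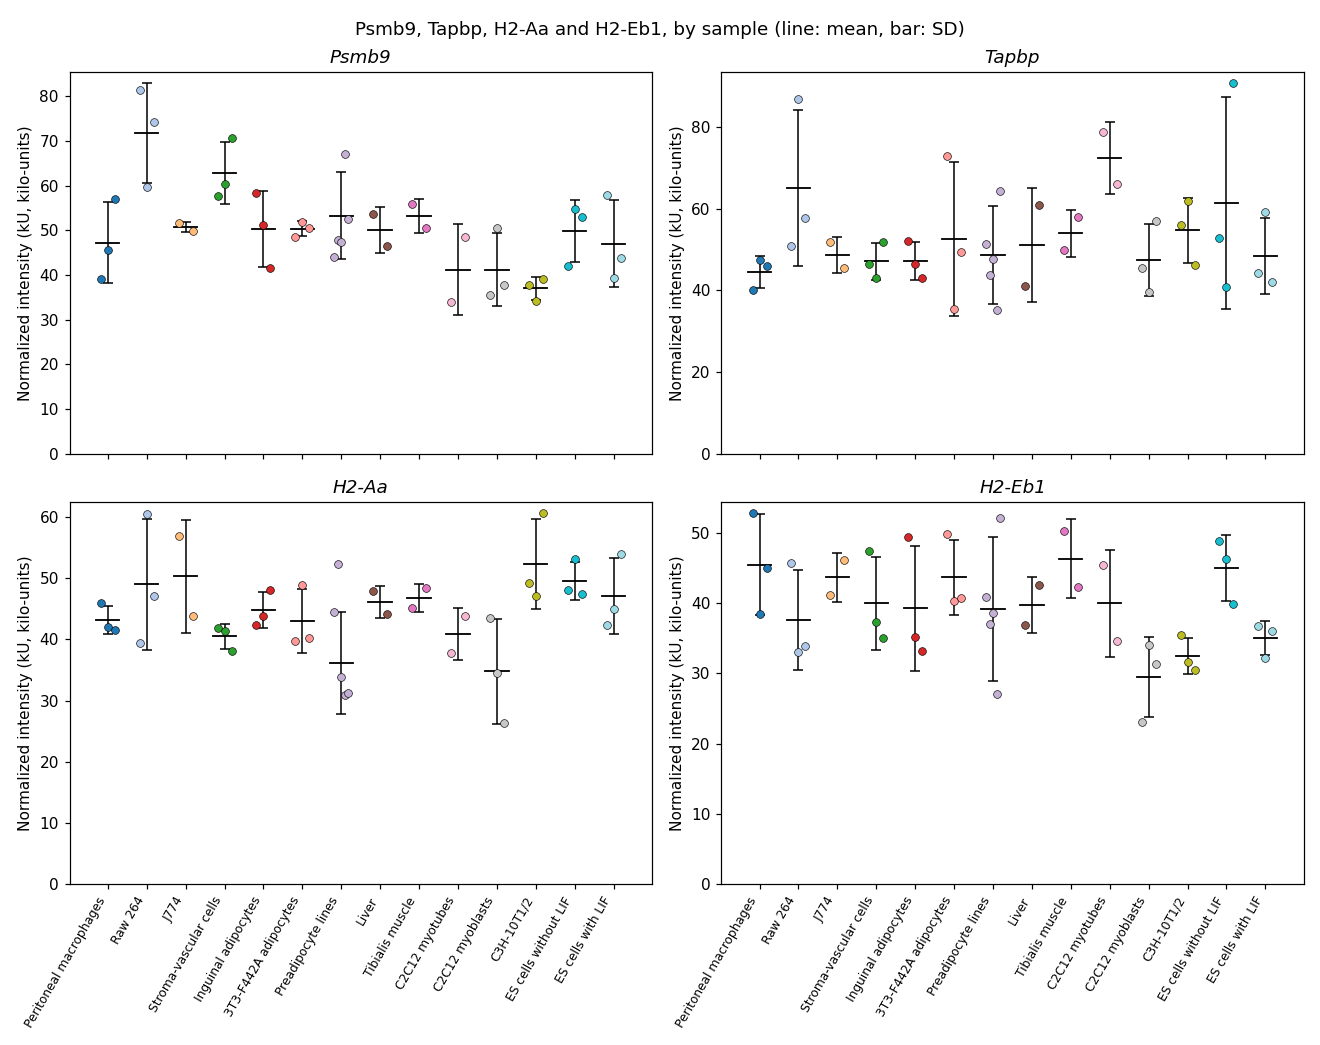
Normalized intensity in kilo-units (kU) (y axis) of Psmb9, Tapbp, H2-Aa and H2-Eb1 in each sample (points) of the 14 groups (x axis), with the group mean as a line and 1 SD as a bar. Psmb9 is highest in Raw 264, at 59.7 to 81.4 kU, and H2-Eb1 spans 38.5 to 52.9 kU in peritoneal macrophages.

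The class II genes H2-Aa and H2-Eb1 gave mostly dim spots, in macrophages too. On 37 arrays the median percentile was 27.7 for H2-Aa and 12 for H2-Eb1, and 4 arrays and 1 array had them above the 50th percentile. In peritoneal macrophages H2-Aa read 45.9, 42.0 and 41.6 kU, at the 21.9th to 32.9th percentile, and H2-Eb1 52.9, 38.5 and 45.0 kU, at the 14.4th to 50.8th. Neither was called in any comparison, with smallest adjusted p-values of 0.199 for H2-Aa, in macrophage lines against preadipocyte lines (0.25 ± 0.08, limma), and 0.586 for H2-Eb1. The range of group means was 0.32 and 0.33 on the log2 scale, and no neighbours in either order differed by more than the larger SD. No background spots were used here, so at intensities this low transcript could not be told apart from filter background. The same limit holds for Gbp2, Apol9a, Tapbp, Psmb8 and Psmb9 in the groups where they were as dim.

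**Figure D4:**
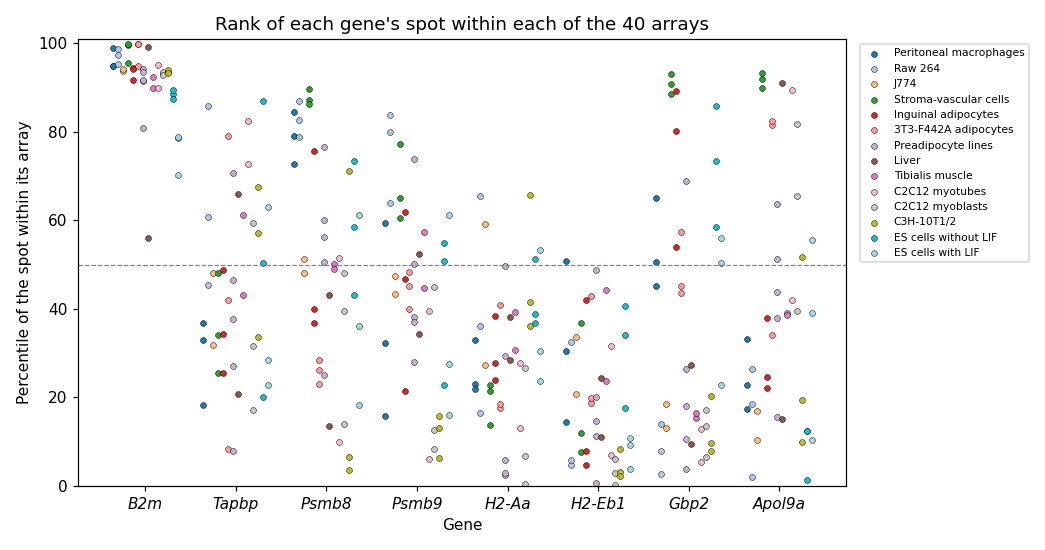
Percentile of each gene's spot among the 5760 spots of its array (y axis) for the 8 genes (x axis), 1 point per array, coloured by group, with the 50th percentile dashed. B2m lies between 55.9 and 99.9 on 37 arrays, while H2-Aa reaches 65.8 and H2-Eb1 50.8 at most.

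The remaining comparisons of 2 conditions called no member. The share of spots called was 2.90% in peritoneal macrophages against macrophage lines, 0.104% in Raw 264 against J774, 0.521% in macrophage lines against preadipocyte lines, and 2.47% in inguinal against 3T3-F442A adipocytes. It was 0.156% in 3T3-F442A adipocytes against preadipocyte lines, 0.226% in C2C12 myotubes against myoblasts, 0.920% in tibialis muscle against myotubes and 1.88% in liver against tibialis muscle. At an unadjusted limma p under 0.05 these 8 comparisons held 2, 2, 2, 2, 1, 1, 0 and 0 of the 8 members, in the same order. The shares of all spots at that p were 14.5%, 10.0%, 12.4%, 18.7%, 9.95%, 9.97%, 8.89% and 15.1%, so that 1 or 2 of 8 members stand near the background. Whether the difference between peritoneal macrophages and their lines differed from that between inguinal and 3T3-F442A adipocytes was tested as an interaction, which called no member (0.486% of spots; 1 member, against 6.68% of spots, at an unadjusted p under 0.05, B2m at 1.70 ± 0.58). The adipogenic change (3T3-F442A adipocytes minus the preadipocyte lines) minus the myogenic change (C2C12 myotubes minus myoblasts) called none either, against 0.260% of spots. At an unadjusted limma p under 0.05 it held 1 member, B2m at 1.48 ± 0.62, against 10.2% of spots. The preadipocyte lines were growing and mostly other lines, so that line, density and rosiglitazone cannot be told apart from differentiation.

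B2m and Apol9a varied between samples of 1 group, in the same order in some groups and not in others. The sample highest in B2m was also the highest in Apol9a in 7 of 14 groups, and it was the lowest in Apol9a in 4. With only 2 to 5 samples per group, unrelated genes would match often as well, and no expected count was computed. Liver read 621 and 55.3 kU for B2m and 116 and 38.8 kU for Apol9a, with the same sample high in both; raw array medians were 32480 and 18870. C2C12 myotubes read 106 and 381 kU for B2m and 49.4 and 103 kU for Apol9a. In 3T3-F442A adipocytes the sample with the lowest B2m, 350 kU, had the lowest Apol9a, 46.3 kU against 76.8 and 78.5 kU. In stroma-vascular cells sample 1 was lowest for B2m, Apol9a and Gbp2 and highest for Psmb8. Raw array medians of stroma-vascular samples 1, 2 and 3 were 28688.5, 49943.5 and 59513.5. The order was opposite in J774, with 204 and 255 kU for B2m and 39.6 and 36.5 kU for Apol9a. In peritoneal macrophages the highest B2m sample, at 585 kU, had the lowest Apol9a, 39.7 kU. The part of a library in these differences was not tested. In liver against tibialis muscle, the sign of B2m turned when the high liver sample was left out (0.63 with it, -0.79 without), and likewise that of Apol9a, at -0.17 without it.

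**Figure D5:**
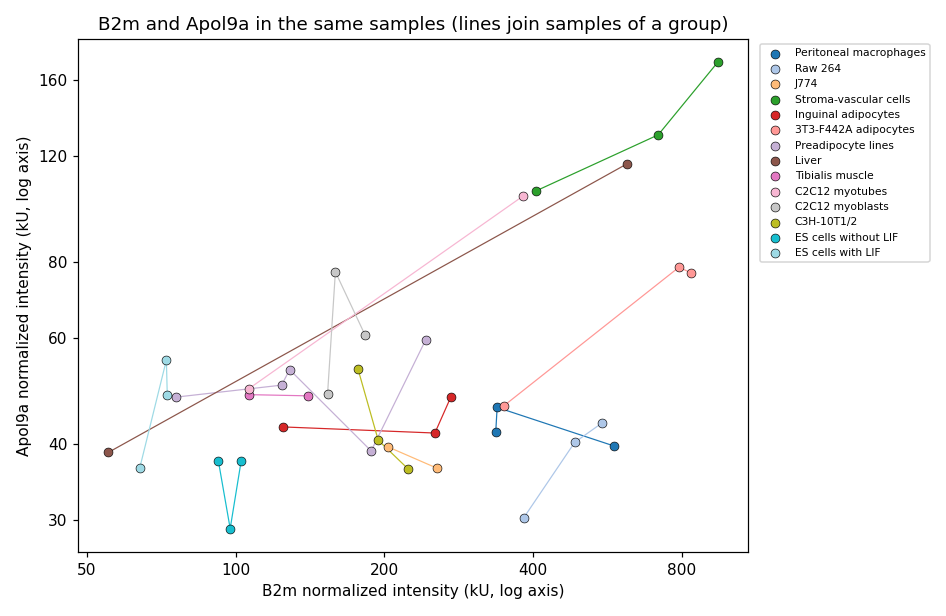
Normalized intensity in kilo-units (kU) of B2m (x axis, log) against Apol9a (y axis, log) in each sample, coloured by group, with lines joining samples of a group. The liver samples lie at 621 and 55.3 kU of B2m, and the stroma-vascular samples at 105, 130 and 171 kU of Apol9a.

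Other genes of the same pathways were read from lists of 132 genes, of which 14 besides the members were measured. They were H2-Q1 and H2-Ob of the MHC, Mx2, Oas2, Ifi35, Ifih1, Ifitm1, Trim25, Ifi203, Adar and Herc6 among interferon-induced genes, and Ifngr2, Tyk2 and Irf3 of interferon signalling. None of the 14 was called in any of the 13 comparisons. The levels of their spots are not given here, and changes of any dim ones are understated on this scale. In stroma-vascular cells against preadipocyte lines they ran from -0.16 to 0.26, against inguinal adipocytes from -0.33 to 0.23, and none had an unadjusted limma p under 0.05 in either. In peritoneal macrophages against stroma-vascular cells they ran from -0.16 to 0.32, again with none. The largest counts at an unadjusted p under 0.05 were 3 of 14, in peritoneal macrophages against macrophage lines, where 14.5% of all spots had one (3 other comparisons held 1 each), led by Oas2, an interferon-induced RNA sensor (0.40 ± 0.14, adjusted p = 0.143 by limma).

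Marker genes of immune and other cells were set beside the stroma-vascular results. The summed level of 5 macrophage markers (Cybb, Fcer1g, Itgb2, Mpeg1 and Vav1) was 304 to 328 kU in stroma-vascular cells, against 290 to 316 kU in inguinal adipocytes, and 230 to 266 kU in preadipocyte samples. None of the 5 was called in either comparison, and none had an unadjusted limma p under 0.05. Within arrays, Cybb lay at percentiles 68 to 72.5 in stroma-vascular cells against 11.8 to 50.2 in preadipocyte samples. Itgb2 lay at 37.5 to 44.1 against 0.2 to 30.6, and Mpeg1 at 78.9 to 86.6 against 61.7 to 73.4. Fcer1g and Vav1 overlapped. In that comparison 5.28% of all spots did not overlap. The sum of the 5 was 814 to 1037 kU in peritoneal macrophages. There 4 of the 5 were called higher than in stroma-vascular cells, Cybb by 1.91, Mpeg1 by 1.07, Itgb2 by 0.99 and Fcer1g by 0.84. None of 2 B cell, 3 T cell and NK cell or 3 dendritic cell markers was called by limma in the 3 comparisons with called members, and 1, the B cell receptor gene Cd79b, had an unadjusted p under 0.05 (0.41 ± 0.20 in stroma-vascular cells against preadipocyte lines). The endothelial markers Cdh5 and Eng summed to 111 to 151 kU in stroma-vascular cells against 81.3 to 98.0 kU in inguinal adipocytes, and Cdh5 differed by 0.44 ± 0.14 without being called (adjusted p = 0.18 by limma). Preadipocyte samples summed to 67.5 to 106 kU and peritoneal macrophages to 75.7 to 114 kU, and neither endothelial marker was called in those comparisons.

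Of 5 adipocyte markers, 2 were called lower in stroma-vascular cells than in inguinal adipocytes, Retn, which encodes resistin (-0.89 ± 0.15, adjusted p = 0.00119 by limma), and Pnpla2, which encodes a triglyceride lipase (-0.63 ± 0.11, adjusted p = 0.00245 by limma). The 5 summed to 357 to 453 kU in stroma-vascular cells against 507 to 742 kU in inguinal adipocytes. The fibroblast markers Timp2 and Lgals1 summed to 225 to 406 kU in stroma-vascular cells, against 127 to 169 kU in inguinal adipocytes and 343 to 950 kU in preadipocyte samples. Neither was called in either comparison. Against adipocytes Timp2 differed by 0.67 ± 0.32 (adjusted p = 0.534 by limma) and Lgals1 by 0.93 ± 0.39 (adjusted p = 0.452 by limma). Against preadipocyte lines Timp2 differed by -0.63 ± 0.29 (adjusted p = 0.603 by limma) and Lgals1 by -1.44 ± 0.37 (adjusted p = 0.133 by limma). In peritoneal macrophages the fibroblast sum was 128 to 234 kU. The part of macrophages, other immune cells, endothelial cells, adipocytes and fibroblasts in the members' differences was not tested.

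In ES cells without LIF, labelled differentiated, B2m read 97.5, 92.3 and 103 kU, against 72.4, 63.9 and 72.7 kU with LIF. Gbp2 read 66.7, 56.6 and 86.5 kU without LIF and 55.3, 52.7 and 42.0 kU with it. H2-Eb1 read 48.9, 46.3 and 39.8 kU without LIF and 36.8, 32.2 and 36.0 kU with it. Every sample without LIF lay above those with it for these 3 of 8 members, against 16.0% of spots without overlap. Apol9a read 29.0, 37.5 and 37.6 kU without LIF and 55.1, 36.5 and 48.2 kU with it, which overlap. The 3 arrays without LIF differ in kind from the others, so the condition and the kind of array cannot be told apart.

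Profiles like those of the members were sought by Pearson's r over 13 group means, as a description, among the 274 or 275 other named spots whose group means had an SD of at least 0.25. B2m was nearest to Cmtm3 and Anxa5 (0.75 each), Psmb8 to Srgn and Auts2 (0.71 each) and Psmb9 to Auts2 (0.66) and Arrb2 (0.65). Gbp2 was nearest to Src (0.63) and Apol9a (0.62), and Apol9a to Gbp2 (0.62) and Cfl2 (0.53). Tapbp was nearest to Zfp346 (0.89), whose spot lies 12 rows away in the table, and Exoc8 (0.83). H2-Eb1 was nearest to AI429294 (0.65) and Lrrc47 (0.60), and H2-Aa to Fcer1g (0.38) and Pilra (0.33). The points share arrays, normalization and the preadipocyte mean, and 5 of these 16 names remained with Spearman's correlation.

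Calls of the members changed with the processing. Without scaling between arrays none of the 7 calls remained, and after subtraction of each array's 5th percentile 1 did (Gbp2 in stroma-vascular cells against preadipocyte lines), while the fold changes of Apol9a were 2.90 against adipocytes and 2.48 against preadipocyte lines. In stroma-vascular cells against inguinal adipocytes, 36 spots of any gene were called as reported, 1 without scaling and 20 after the subtraction. In peritoneal macrophages against stroma-vascular cells these counts were 26, 3 and 0. Stroma-vascular cells against preadipocyte lines called 11 spots as reported, 0 without scaling and 3 after the subtraction. With median scaling, or with the ES cell arrays without LIF left out, the calls of Psmb8 against adipocytes (adjusted p = 0.0755 and 0.0603 by limma) and B2m against preadipocyte lines (0.114 and 0.0654) were lost.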

How the data were processed

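Spot intensities were used as deposited, linear and 1 value per spot, for 5760 spots on each of 40 filters. Per the labels, Tripure RNA was cleared of DNA with DNase, copied into 33P-labelled cDNA and hybridised to Resgen filters, whose spots were read with Imagene. For software version, background correction and scaling, the details were not given in the sources used here. Precision is limited by the number of arrays.

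Of the spots, 3420 have 1 gene symbol in the platform annotation, 98 several and 2242 none, and 3346 of them found a current symbol through the gene identifier (GRCm38.p6, names only). Samples were grouped by title or source name; C2C12 samples in proliferation have a source name of a preadipocyte line and were taken as myoblasts by title.

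All arrays were quantile normalized, an offset of 36370 (the 10th percentile, 36.4 kilo-units, kU) was added and log2 was taken. The pair of 3T3-L1 samples was averaged. The 14 groups entered 1 limma 3.58.1 fit in R 4.3.3 (lmFit, contrasts.fit, eBayes; 25 residual degrees of freedom, two-sided), with Benjamini-Hochberg adjustment over 5760 spots and calls under 0.05. The moderated F test used 12 contrasts of 13 groups. The procedure was tested on simulated data. Python 3.11.15 with matplotlib 3.10.9 drew the figures.

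Sample numbers were taken to pair groups where 3 pairs all correlated above 0.1 in their deviations, which held for stroma-vascular cells with inguinal adipocytes only (0.259, 0.102 and 0.386); the pairing comes from the numbers in the titles and this check. Named were all 8 members, the 2 genes with the most similar profile to each, called genes of the pathway lists, called immune markers in comparisons with a called member, and the leading marker of a tissue. Oas2, the endothelial, adipocyte and fibroblast markers and the list of measured pathway genes were named after their values were seen. A gene with several spots stands by its brightest. The members and lists were chosen with earlier results of these data known.

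Alternatives were other scaling, no scaling, subtraction of the 5th percentile of each array, 4 times the offset, bright spots only, removal of a running median of 101 spots, other spot averaging, other samples in the fit, the replicate block and leaving out each sample.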

Additional observations from a re-analysis of the deposited data

How the results depend on the processing

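None of the 7 called differences turned its sign under any alternative run. Members called in stroma-vascular cells against inguinal adipocytes, in peritoneal macrophages against stroma-vascular cells and in stroma-vascular cells against preadipocyte lines numbered 2, 2 and 3 as reported, 0, 0 and 0 without scaling, 0, 0 and 1 after subtraction of each array's 5th percentile, and 0, 0 and 0 among bright spots only, a filter that of the 8 genes only B2m and Psmb8 pass. Of all 5760 spots, 36, 26 and 11 were called as reported, 1, 3 and 0 without scaling, and 20, 0 and 3 after the subtraction. Of the 2880 bright spots, 22, 12 and 2 were called. Without scaling, the median of all spots shifted by -0.27, 0.28 and 0.17 in these comparisons. Against adipocytes 1 member was called with median scaling (27 spots in all) and 1 with the ES cell arrays without LIF left out (29 spots). The replicate block for the sample number was fitted on the compared groups alone. There it gave 4 called members, against 3 without the block, for stroma-vascular cells against adipocytes, 1 against 2 for macrophages against stroma-vascular cells, 1 against 1 for inguinal against 3T3-F442A adipocytes and 1 against 0 for tibialis muscle against myotubes, and it changed no other count. In the same order, spots called with the block against without it numbered 231 against 112, 15 against 20, 249 against 289 and 184 against 27. Of these pairs of groups only stroma-vascular cells and adipocytes met the rule for pairing, 3 pairs all above 0.1. Groups with 2 shared numbers could not meet it. Tibialis muscle and myotubes, for example, correlated at 0.101 and 0.101, and their pairing is unknown. A crossed block for liver against tibialis muscle, chosen after seeing the data because the numbers correlated at -0.111, called 0 members. Inguinal against 3T3-F442A adipocytes called 1 member in place of 0 among bright spots (185 of 2880 spots called), with the running median removed (337 of 5760), and with the compared groups alone (289). The 3T3-F442A adipocytes against preadipocyte lines called 1 in place of 0 among bright spots (11 of 2880 spots called), with the compared groups alone (9 of 5760), and with 3T3-L1 samples kept apart (11). Liver against tibialis muscle called 7 members without scaling, where 5632 of 5760 spots were called and the median of all spots was -1.53. The F test called 5 members as reported, 1 without scaling and 2 among bright spots. Of 16 similar genes, 5 remained with Spearman correlation and 5 with median scaling.

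Leaving out 1 sample at a time gave 1 to 2 called members for stroma-vascular cells against adipocytes, 2 to 2 for macrophages against stroma-vascular cells, 1 to 3 for stroma-vascular cells against preadipocyte lines, 0 to 1 for inguinal against 3T3-F442A adipocytes and for 3T3-F442A adipocytes against preadipocyte lines, 0 to 2 for liver against tibialis muscle, and 0 to 0 for the others. For the first 5 of these comparisons, spots called in all ran from 14 to 37, 17 to 22, 5 to 12, 34 to 275 and 6 to 32. Signs turned only among uncalled differences. In tibialis muscle against myotubes, B2m was 0.37 without scaling and -1.40 to 0.15 with 1 sample left out. In liver against tibialis muscle without scaling, B2m was -1.35, Gbp2 -1.41 and Apol9a -1.18; Gbp2 was -0.01 after subtraction of the 5th percentile and -0.03 with the running median removed, and Tapbp 0.05 with it removed. With 1 sample left out there, the ranges were -0.79 to 2.05 for B2m, -0.04 to 0.02 for H2-Aa, -0.11 to 0.01 for Psmb9, -0.22 to 0.11 for Tapbp, -0.06 to 0.09 for Gbp2 and -0.17 to 0.85 for Apol9a. The causes were not tested. Dim spots, the class II spots among them, limit what these filters can show.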
